A study of Homo sapiens with 2 samples.

Results

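Amino acid transporters are described here in HuES53 and HuES64, lines of human embryonic stem cells, from 1 library of polyadenylated RNA each (2 in all). The members are the genes of 6 solute carrier (SLC) families, a choice made with earlier results of these data known. Every gene with a symbol of families SLC1, SLC3, SLC7, SLC36, SLC38 and SLC43 was taken. This gave 40 of the 25436 gene symbols in the deposited table. Both lines are diploid controls of a study on haploid embryonic stem cells. Per the labels they came from in vitro fertilization, were undifferentiated, and were below passage 20, with no treatment or genetic change named. Each line stands for 1 library, so no difference has a replicate check, no p-value was computed, and a difference speaks for the libraries alone.

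Cells take up amino acids through carriers that differ in what they move and what drives them. Sodium-coupled carriers of the SLC1 and SLC38 families can concentrate amino acids inside the cell. Exchangers such as SLC7A5 trade one amino acid for another, and so depend on what the concentrating carriers have brought in. Most exchangers of the SLC7 family work as a pair, a light chain that carries the substrate and a heavy chain, SLC3A2 or SLC3A1, that brings it to the surface. Pluripotent cells are known to depend on methionine, glutamine and other amino acids from the medium.

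The labelled cell type was checked first. All 6 pluripotency markers were high, from 94.4 FPKM (fragments scaled for transcript length and for the size of the library) for NANOG to 1053 FPKM for POU5F1 in HuES53, and from 84.7 to 1381 FPKM for the same genes in HuES64. Of 8 fibroblast and mesenchyme markers 7 reached 1 FPKM in each line, with a summed level of 1234 FPKM in HuES53 and 1622 FPKM in HuES64, led by TAGLN, THY1 and COL1A1, while DCN stood at 0.199 and 0.438 FPKM. The 4 neuroectoderm markers summed to 1.89 and 1.18 FPKM, the 4 endoderm markers to 35.8 and 27.9, the 3 trophoblast markers to 9.09 and 5.35, and the 3 blood and endothelium markers to 0.272 and 0.178. The 4 genes of astrocytes and neurons summed to 4.53 and 3.82 FPKM. In such bulk samples more cells of a type and more RNA per cell cannot be told apart, and the part of any other cell type in the transporter levels was not tested. No total of fragments is given in the sources used here. In the low values of genes with a single reference transcript, the most common step gave HuES53 1.22 times the depth of HuES64, with 1 FPKM over 1 kb worth about 18.7 fragments in HuES53 and 15.4 in HuES64, if fragments had a mean length of 200 bases.

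A few carriers made up most of the transporter RNA in both lines. Of the 40 members, 27 members reached 1 FPKM in HuES53 and 26 members did in HuES64, beside 54.2% and 53.3% of all genes. The 4 with the highest mean, namely SLC3A2, SLC1A5, SLC7A5 and SLC7A3, held 72.0% of the summed FPKM of all members in HuES53 and 75.6% in HuES64. All 40 together summed to 1163 FPKM in HuES53 and 1018 FPKM in HuES64. The levels followed nearly the same order in both libraries, with a Pearson's r of 0.98 and a Spearman's rho of 0.99 across the 27 members whose mean reached 1 FPKM, given as a description since genes are not replicates.

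**Figure D1:**
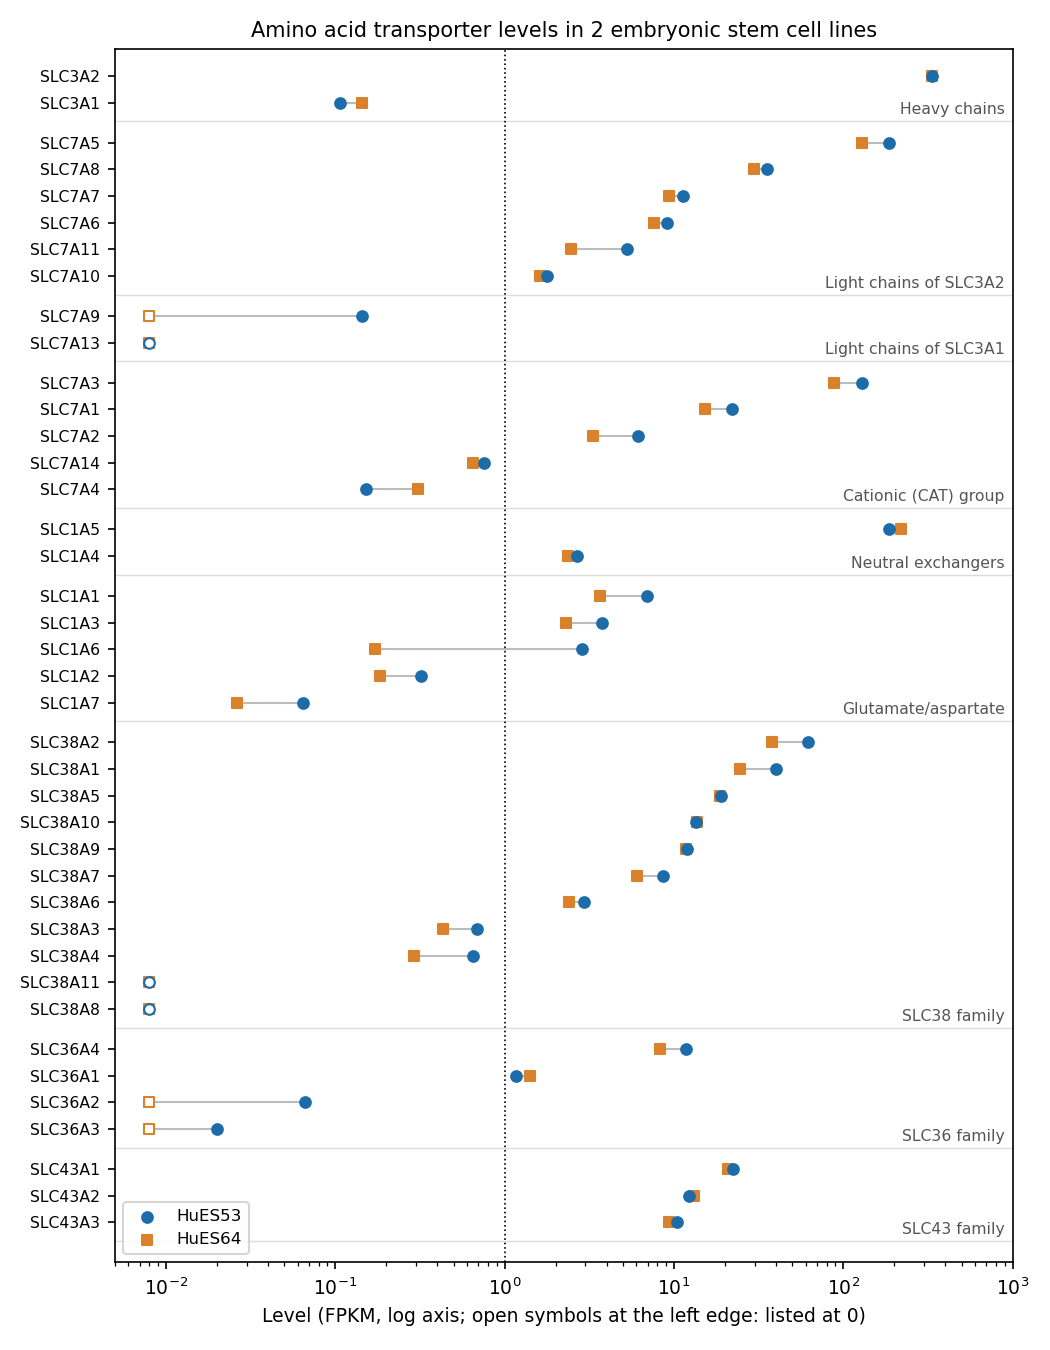
Level of each of the 40 transporters in FPKM on a log axis, with a circle for HuES53 and a square for HuES64 and open symbols for genes listed at 0. The dotted line marks 1 FPKM, SLC3A2 leads at 335 and 332 FPKM, and SLC1A6 is the gene whose symbols lie far apart across that line (2.88 and 0.172 FPKM).

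The heavy chain SLC3A2 was the highest member in both lines and was nearly level in them. SLC3A2, the cell surface antigen CD98 that escorts its light chains to the membrane, stood at 335 FPKM in HuES53 and 332 FPKM in HuES64, at the 98.9 and 98.7 percentile of all genes. Its locus in the deposited table, whose genome build is not given in the sources used here, is chr11:62623484-62656355. The other heavy chain, SLC3A1, which serves the kidney and gut transporter of cystine, stood at 0.106 FPKM in HuES53 and 0.143 FPKM in HuES64. These values of SLC3A1 stand for about 3 fragments in each line at the depth estimated above. Its light chain SLC7A9 had a value of 0.143 FPKM in HuES53 and was at 0 in the HuES64 column, and SLC7A13 was listed at 0 in both. The SLC3A2 system was thus the one measured at a high level, while every chain of the SLC3A1 system was below 0.2 FPKM.

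All 6 light chains that pair with SLC3A2 were above 1 FPKM in both lines. SLC7A5, a light chain that carries large neutral amino acids such as leucine, stood at 185 FPKM in HuES53 and 129 FPKM in HuES64 (chr16:87863629-87903100). It held 74.5% of the summed light chain FPKM in HuES53 and 71.7% in HuES64. SLC7A8, a related carrier with a wider choice of neutral substrates, came next at 35.7 and 29.8 FPKM. SLC7A7 and SLC7A6, which exchange cationic for neutral amino acids, stood at 11.3 and 9.40 FPKM and at 9.12 and 7.59 FPKM. SLC7A11, the cystine and glutamate exchanger that feeds glutathione synthesis, was lower, at 5.29 FPKM in HuES53 and 2.48 FPKM in HuES64. SLC7A10, a carrier of small neutral amino acids known from the brain, stood at 1.78 and 1.62 FPKM.

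In the deposited values the light chains differed between the lines more than their heavy chain did. Their summed level was 248 FPKM in HuES53 and 179.6 FPKM in HuES64, against the nearly level SLC3A2, so that the ratio of light chains to SLC3A2 was 0.74 in HuES53 and 0.54 in HuES64. This ratio lies within 1 library and does not depend on how the libraries are scaled. The ratio was not computed with the trend over GC content and transcript length, described below, taken out. It rests mostly on SLC7A5, whose value has a limit of its own. The short locus LOC100506670 (1305 bases) lies wholly inside that of SLC7A5, and it stood at 125 FPKM in HuES53 and 169 FPKM in HuES64, in the opposite direction. Fragments from the shared bases could belong to either gene, and the part of their split in the difference was not tested.

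**Figure D2:**
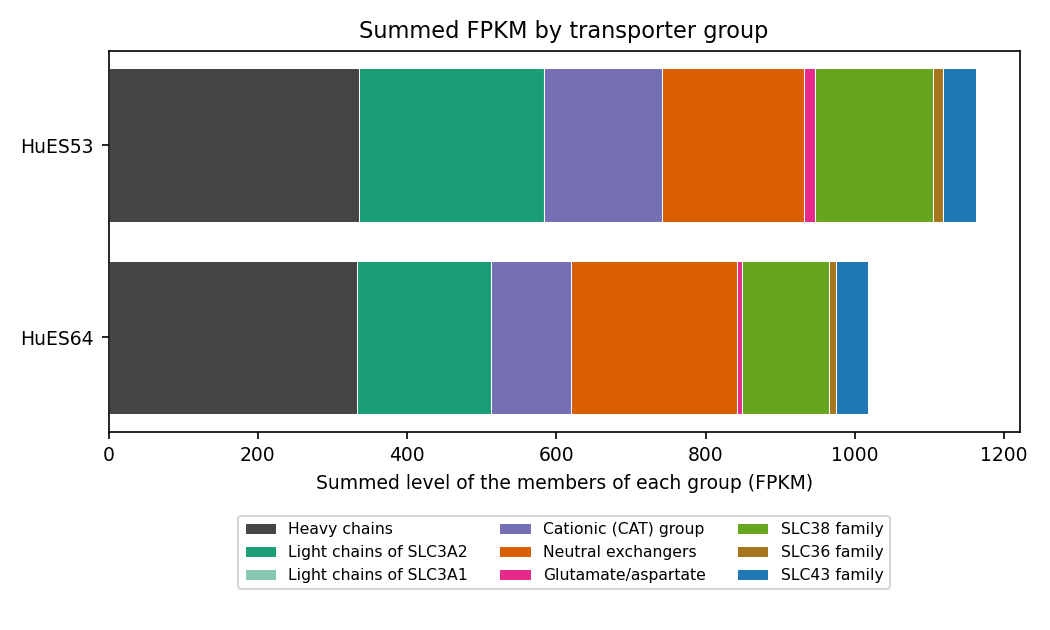
Summed FPKM of the members of each transporter group, stacked by line, on an axis that starts at 0. Heavy chains take 335 FPKM of 1163 in HuES53 and 332 of 1018 in HuES64, and the light chains of SLC3A1 (0.143 and 0 FPKM) are too low to be seen.

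Among carriers of cationic amino acids, SLC7A3 was far above its relatives. SLC7A3, on the X chromosome (chrX:70145429-70150975), takes up arginine and lysine without a heavy chain and stood at 129 FPKM in HuES53 and 88.6 FPKM in HuES64. The widely expressed SLC7A1 stood at 21.98 and 15.3 FPKM, and SLC7A2, which also has a liver form, at 6.11 and 3.35 FPKM. SLC7A3 was 5.88 times the level of SLC7A1 in HuES53 and 5.78 times in HuES64, and held 81.7% and 81.9% of the group's sum. The balance within this group was therefore close to equal in both libraries. Each of these 3 genes was higher in HuES53, beside 52.5% of all genes whose mean reached 1 FPKM. The related genes SLC7A14 (0.754 and 0.654 FPKM) and SLC7A4 (0.151 and 0.308 FPKM) were below 1 FPKM in both lines, and transport of cationic amino acids at the cell surface is not established for either.

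The neutral exchanger SLC1A5 was the second highest member. SLC1A5, the sodium-dependent exchanger that brings in glutamine, stood at 187 FPKM in HuES53 and 219.9 FPKM in HuES64 (chr19:47278140-47291842). Its relative SLC1A4, which prefers alanine, serine and cysteine, stood at 2.66 and 2.37 FPKM. SLC1A5 was 70.4 times the level of SLC1A4 in HuES53 and 92.6 times in HuES64. SLC1A5 was also the member with the lowest difference on the deposited scale, at -0.23 in log2(FPKM + 1), HuES53 minus HuES64, which is the scale of every difference below.

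The glutamate and aspartate carriers were low, and they held the member that differed most. SLC1A6, a glutamate transporter best known from cerebellar Purkinje cells, stood at 2.88 FPKM in HuES53 and 0.172 FPKM in HuES64 (chr19:15060991-15083730). For its median reference transcript of 1719 bases these levels stand for about 82 fragments in HuES53 and 4 in HuES64. The ratio of the rounded fragments, scaled for depth, was 16.8 with an exact 95% interval of 6.33 to 63.2. That interval covers counting error alone and takes the estimated fragments as counts. SLC1A6 reached a mean of 1 FPKM through HuES53 alone and was singled out for its large difference. The interval is therefore no test of that difference. The nearest genes on either side in the table, OR7C2 and CCDC105, were listed at 0 in both lines. SLC1A1, the neuronal and epithelial form, stood at 6.98 FPKM in HuES53 and 3.64 FPKM in HuES64. SLC1A3, known from astrocytes, stood at 3.74 and 2.31 FPKM. SLC1A2, the main glutamate transporter of the adult forebrain, stood at 0.322 and 0.183 FPKM, and SLC1A7, known from the retina, at 0.0645 and 0.0263 FPKM, or about 3 fragments and 1. On the deposited scale all 5 were higher in HuES53, by 0.05 for SLC1A7 up to 1.73 for SLC1A6. With no filter on the mean 42.3% of all genes were higher in HuES53, and 52.5% of those whose mean reached 1 FPKM. SLC1A2 and SLC1A7 did not reach that mean.

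The SLC38 family of sodium-coupled neutral amino acid transporters was spread over a wide range. SLC38A2, which is known to be induced when amino acids run short, stood at 61.7 FPKM in HuES53 and 38.2 FPKM in HuES64 (chr12:46751971-46766645). SLC38A1, its neighbour on the chromosome (chr12:46576838-46663208), stood at 39.95 and 24.6 FPKM. Together they held 64.0% of the summed FPKM of the family in HuES53 and 54.0% in HuES64, and both differed by 0.68. SLC38A2 shares 900 bases with LOC100652745, which stood at 49.1 FPKM in HuES53 and 73.3 FPKM in HuES64, again opposite in direction, and the part of this overlap was not tested. SLC38A4, further along the same chromosome, was at 0.652 and 0.291 FPKM.

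Of the other SLC38 genes, 3 were within 0.03 of level between the lines, and SLC38A7 differed by 0.44. SLC38A5, which carries glutamine, serine and glycine, stood at 19.0 and 18.7 FPKM, and SLC38A10, whose role is less clear, at 13.4 and 13.7 FPKM. SLC38A9, the lysosomal arginine sensor of the growth kinase complex mTORC1, stood at 11.9 and 11.8 FPKM. SLC38A7, a lysosomal exporter of glutamine, stood at 8.61 and 6.07 FPKM, and SLC38A6 at 2.96 and 2.40 FPKM. SLC38A3, known from liver and kidney, was at 0.686 and 0.434 FPKM. SLC38A8 and SLC38A11 were listed at 0 in both lines.

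Of the proton-coupled SLC36 family, SLC36A4 and SLC36A1 were measured above 1 FPKM. SLC36A4 stood at 11.8 FPKM in HuES53 and 8.23 FPKM in HuES64. SLC36A1, which exports small amino acids from the lysosome, stood at 1.16 and 1.41 FPKM and was the lowest member whose mean reached 1 FPKM, just above SLC7A14. Next to it on chromosome 5, SLC36A2 and SLC36A3 were at 0.0661 and 0.0200 FPKM in HuES53, about 2 fragments and 1, and listed at 0 in HuES64. The SLC43 genes differed by at most 0.13, with SLC43A1, a facilitated carrier of branched-chain amino acids, at 22.2 and 20.8 FPKM, its relative SLC43A2 at 12.2 and 13.2 FPKM, and SLC43A3, which is known to carry purine bases rather than amino acids, at 10.4 and 9.37 FPKM.

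Across the members, small differences toward HuES53 were common and large ones rare. Of the 27 members whose mean reached 1 FPKM, 1 (SLC1A6) was at least 2-fold higher in HuES53, where 2.15% of the 13790 genes with such a mean were, and none was at least 2-fold higher in HuES64, where 1.70% were. With 27 genes these counts are near the background. The count of 1 became 3 with TPM scaling, where 5.22% of all genes passed, 2 with a pseudocount of 0.1 FPKM (4.24%), and 0 when the mean had to reach 5 FPKM (1.67%). Counted at any size, 23 of the 27 were higher in HuES53, beside 52.5% of all genes, and 4 in HuES64, beside 47.5%. Their median difference was 0.25, beside 0.03 for all genes. After SLC1A6 the largest differences were those of SLC7A11 (0.85), SLC1A1 (0.78) and SLC7A2 (0.71). The middle 50% of the members lay between 0.05 and 0.53, and the middle 50% of all genes between -0.26 and 0.32.

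**Figure D3:**
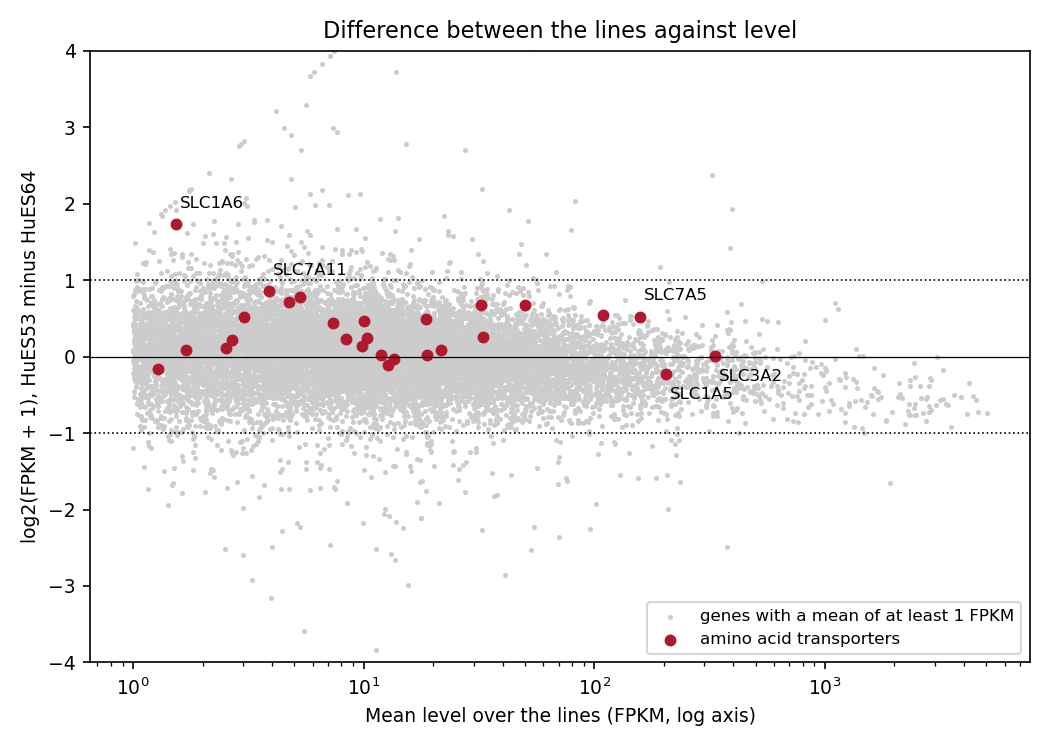
Difference between the lines in log2(FPKM + 1) against mean level in FPKM on a log axis, for all genes whose mean reached 1 FPKM (grey) and the 27 transporters (red), with dotted lines at 2-fold and 40 genes beyond the vertical range. SLC1A6 is the transporter outside the dotted lines, and most others lie between the zero line and the upper one.

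The direction of 6 members changed with the scaling. SLC3A2, SLC38A5 and SLC38A9 turned lower in HuES53 when the libraries were scaled by the median of ratios, and SLC38A10 turned higher there with upper quartile scaling. TPM scaling, in which each library sums to the same total, turned SLC1A5, SLC38A10 and SLC43A2 higher in HuES53. It moved the median of all genes from 0.03 to 0.25 and that of the members from 0.25 to 0.49, so that relative to all genes the members stood at 0.22 before and 0.23 after. With TPM scaling 26 of 27 members were higher in HuES53, beside 72.0% of all genes. Under the deposited values and all 3 scalings 20 members were higher in HuES53, and SLC36A1 was higher in HuES64. The share of all genes that kept their direction was not computed.

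The differences also moved with GC content. Across the 27 members Spearman's rho between the difference and the GC content of the reference transcripts was -0.44, and across 11916 genes it was -0.49, both as descriptions of genes that share the same libraries. The 9 members lowest in GC (37.2% to 47.4%) had a median difference of 0.68 and all were higher in HuES53. The 9 highest in GC (56.8% to 62.0%) had a median of 0.09, and 6 of the 9 were higher in HuES53. Over all GC contents 52.5% of genes whose mean reached 1 FPKM were higher in HuES53. The shares of all genes within these GC ranges were not computed, so these counts do not set the members apart. With the trend over GC content and transcript length taken out, the medians of the lowest 9 and the highest 9 became 0.29 and 0.34. SLC7A11 (GC content 38.6%) then moved from 0.85 to 0.35, and SLC38A2 (38.4%) from 0.68 to 0.38, while SLC7A5 (60.6%) moved from 0.52 to 0.58 and SLC1A6 (59.03%) from 1.73 to 1.85. The member median was 0.28 after removal, with 23 of 27 higher in HuES53, beside 49.98% of 11916 genes and a median of 0 over them, among the 23 SLC38A10 and SLC43A2, while SLC38A6 and SLC38A9 became lower there.

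**Figure D4:**
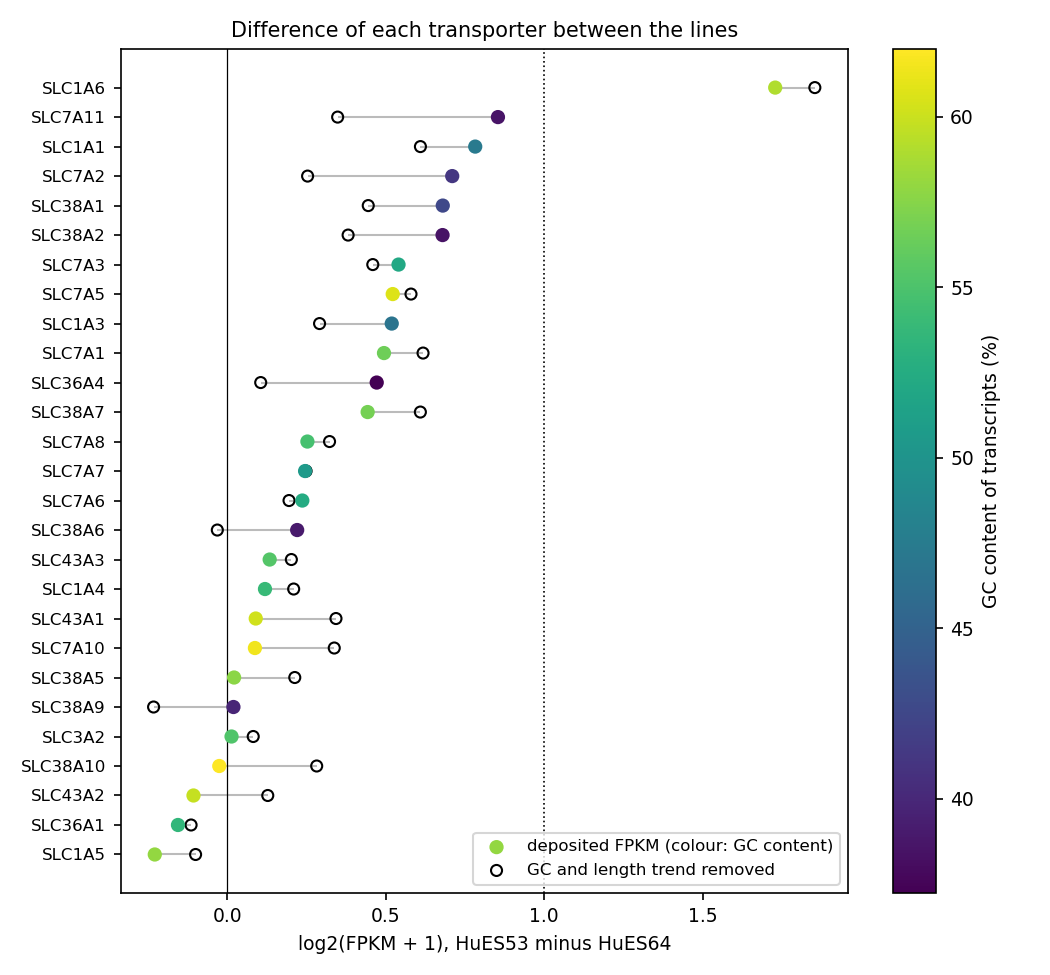
Difference of each of the 27 transporters in log2(FPKM + 1), HuES53 minus HuES64, as deposited (filled, coloured by GC content in percent) and after removal of the GC and length trend (open), with a dotted line at 2-fold. Low-GC genes such as SLC7A11 and SLC38A2 move toward 0 on removal, and SLC1A6 stays beyond the dotted line.

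Several of these transporters are known targets of ATF4, the transcription factor that cells use when amino acids run short and that binds the C/EBP-ATF response element. The promoters were searched for the letters of that element after the lean of many members toward HuES53 was seen. The part of ATF4 in that lean was not tested. RefSeq windows of 300 bases around start sites (250 before and 50 after, GRCh38.p14) matched 31 of the 40 members, with 53 windows in all. TGATGNAA, on either strand, was found in 6 of the 53 windows (11.3%), each of a different member, and in 3.62% of the 35116 windows of all genes. The stretches of up to 30 bases around the matches are shown 5′ to 3′ on the strand of the gene, with the match in capitals, to let the element be compared between members.
SLC1A5: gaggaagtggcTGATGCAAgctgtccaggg
SLC1A3: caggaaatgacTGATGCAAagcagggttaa
SLC1A4: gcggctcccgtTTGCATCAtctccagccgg
SLC38A1: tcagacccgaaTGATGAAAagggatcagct
SLC7A1: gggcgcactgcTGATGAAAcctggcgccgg
SLC3A2: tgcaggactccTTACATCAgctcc
Positions of the stretches are in GRCh38.p14, unlike the loci given above, whose build is not named. The matches of SLC1A4 and SLC3A2 are on the opposite strand, so that their capitals read as the reverse complement. Relative to the start site the first base of the match lay at -97 for SLC1A5 (minus strand, stretch at chr19:46784893-46784922), at -220 for SLC1A3 (plus strand, chr5:36596357-36596386) and at -7 for SLC1A4 (plus strand, chr2:64989381-64989410). It lay at -4 for SLC38A1 (minus strand, chr12:46266502-46266531), at 7 for SLC7A1 (minus strand, chr13:29595663-29595692) and at 37 for SLC3A2 (plus strand, chr11:62881725-62881748).

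The members with these letters and those without were then set side by side. The 6 members with a match, all with a mean that reached 1 FPKM, had a median difference of 0.31. The 17 such members with a window and no match had one of 0.24. Among the 6, SLC1A5 was at -0.23, SLC3A2 at 0.01 and SLC1A4 at 0.12. SLC7A1 was at 0.49, SLC1A3 at 0.52 and SLC38A1 at 0.68, so no member lay near their median. The difference between the medians was not tested. The levels of these 6 members ran from 335 FPKM for SLC3A2 to 2.66 FPKM for SLC1A4 in HuES53. The letters TGACTCA of the AP-1 site were in 6 of the 53 windows (11.3%) and in 4.95% of all windows, and TATAAA was in 4 of 53 (7.55%) and in 11.5% of all windows. No match of the response element overlapped a match of either. A match is a run of letters and no measure of binding.

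The amino acid response, of which ATF4 is a part, was then described from a list of genes. The list holds ATF4 itself and is not one of ATF4 targets alone. Of 31 genes on the list 29 had a mean that reached 1 FPKM, 22 of them were higher in HuES53 and 7 in HuES64, and the median difference was 0.16. The share of all genes higher in HuES53 was 52.5%. With TPM scaling the list had 26 of 29 higher in HuES53 and a median of 0.41, beside 72.0% of all genes, and with the median of ratios 20 of 29 and 0.13. On the deposited scale none was at least 2-fold different, beside 3.86% of all genes in either direction. The folate enzyme gene ALDH1L2, at 0.99 as deposited, passed 2-fold with upper quartile and TPM scaling. DDIT4, an inhibitor of mTORC1 signalling, did so (1.02) with the GC and length trend taken out. Among the 7 genes higher in HuES64 as deposited were DDIT3 (-0.56), ATF3 (-0.22) and TRIB3 (-0.22). With the trend taken out these genes stood at -0.52, -0.19 and 0.03. ATF4 itself stood at 485 FPKM in HuES53 and 510 FPKM in HuES64. PHGDH, the first enzyme of serine synthesis, stood at 419 and 511 FPKM, and PSAT1, the next enzyme, at 390 and 292 FPKM. ATF4, PHGDH and PSAT1 were named for having the highest means of the list, so their high levels do not speak for the rest. The lowest mean of the 29 was that of ALDH1L2, at 5.57 FPKM in HuES53 and 2.31 FPKM in HuES64. PHGDH was lower and PSAT1 higher in HuES53 under every scaling. ATF4 was lower there on the deposited scale but higher with TPM scaling.

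Genes that sense amino acids for mTORC1 had a median near that of all genes on the deposited scale and with TPM scaling. The list held 37 symbols, some of them alternative names of 1 gene. Of these, 32 were in the table, all with a mean that reached 1 FPKM. On the deposited scale 17 were higher in HuES53 and 15 in HuES64, beside 52.5% of all genes higher in HuES53. Their median was 0.05 (0.03 relative to all genes). None was at least 2-fold different, beside 3.86% of all genes in either direction. With TPM scaling 21 were higher in HuES53, beside 72.0% of all genes, and the median was 0.29 (0.04 relative to all genes). Without the GC and length trend 11 of the 28 with a reference transcript were higher there, beside 49.98% of all genes. The median was then -0.10, beside 0 for all genes. The highest were C7orf59 (196.7 and 332 FPKM) and HBXIP (87.5 and 129 FPKM), parts of the Ragulator complex that anchors mTORC1 regulators on the lysosome, and SEC13 (141 and 189 FPKM), a subunit of a complex upstream of it.

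Amino acid transporters of other families were near level as a list. Of 16 whose mean reached 1 FPKM, 7 were higher in HuES53 and 9 in HuES64, beside 52.5% of all genes higher in HuES53. Their median of -0.05 became 0.18 with TPM scaling (-0.08 relative to all genes under both). None was at least 2-fold different, beside 3.86% of all genes in either direction. The taurine transporter SLC6A6 stood at 47.0 and 32.1 FPKM, the mitochondrial carrier of basic amino acids SLC25A29 at 45.7 and 63.6 FPKM, and the mitochondrial aspartate and glutamate carrier SLC25A13 at 38.3 and 29.01 FPKM. The difference between this median and that of the 27 members was not tested.

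Reported here are 20 enzymes of glutamine, glutathione and branched-chain amino acid use whose mean reached 1 FPKM. Of these, 11 were higher in HuES53 and 9 in HuES64, beside 52.5% of all genes higher in HuES53. Their median was 0.11, and none of the 20 was at least 2-fold different, beside 3.86% of all genes in either direction. The median was 0.35 with TPM scaling (13 higher in HuES53, beside 72.0% of all genes). It was -0.04 without the GC and length trend (8 higher in HuES53, beside 49.98% of all genes). GLUL, which makes glutamine from glutamate, stood at 75.8 and 103 FPKM. CBS, which leads from methionine to cysteine, stood at 163 and 213 FPKM, and GOT2, a mitochondrial aminotransferase, at 116 and 122 FPKM. GLUL was lower in HuES53 under every scaling, and SLC1A5, which imports glutamine, was lower there on the deposited scale but not with TPM scaling.

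**Figure D5:**
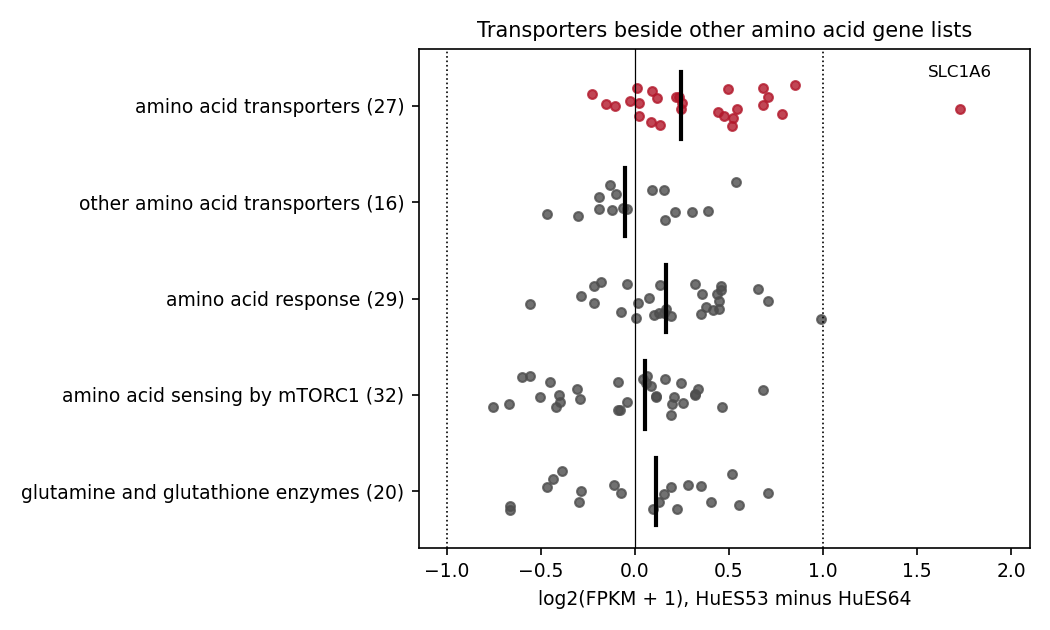
Differences in log2(FPKM + 1), HuES53 minus HuES64, for the transporters and 4 further lists, 1 point per gene whose mean reached 1 FPKM, thick bars at the medians and dotted lines at 2-fold. The transporter median is 0.25, the others lie between -0.05 and 0.16, and SLC1A6 is the point beyond 2-fold.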

How the data were processed

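The authors deposited 1 table of FPKM values with 25593 rows, each holding a symbol, a position and the values of both lines. TopHat2 2.0.4 and Cufflinks 2.0.2 are named, per the submitters' processing notes, while build, annotation and strand setting were not given in the sources used here. Rows of chromosome Y (136) were left out and rows sharing a symbol were summed. Loci count from 0 (1258 of 1297 microRNA genes had their RefSeq length on that reading) and are printed counting from 1.

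Differences are log2(FPKM + 1), which understates changes of low genes, for genes whose mean reached 1 FPKM. With 1 library per line no test was run. Depth was estimated from steps of low values, of which 57.8% in HuES53 and 57.3% in HuES64 lay within 0.1 of a whole number between 0.5 and 5.5 fragments. GC content and length are medians over GENCODE 29 transcripts, matched by symbol for 86.4% of genes, and the trend was removed by subtracting medians in 20 bins of each over 5 rounds. The members and lists were chosen with earlier results of these data known. All members may be named, and from each further list the 3 with the highest mean and any 2-fold gene, while 1 gene of the enzyme list is not reported here. ALDH1L2, DDIT4, DDIT3, ATF3, TRIB3, the neighbours of SLC1A6 and the overlapping loci were named after their values were seen. Alternatives were pseudocounts, filters, scalings, trend removal, repeated symbols and overlapping loci. Python 3.11.15 with pandas 2.3.3 was used, and the calculation was tested on simulated data.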

Additional observations from a re-analysis of the deposited data

How the results depend on the processing

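No paired analysis was possible because each line has 1 library. The count of members at least 2-fold higher in HuES53 was 1 as reported, 2 with a pseudocount of 0.1 FPKM (SLC7A11 joined), 3 with TPM scaling (SLC7A11 and SLC1A1 joined) and 0 among the 19 members whose mean reached 5 FPKM, which leaves out SLC1A6. It was 0 in the other direction in every setting run. The share of all genes at least 2-fold higher in HuES64 was low too. It ran from 0.98% (trend removed by the longest transcript) to 2.94% (pseudocount of 0.1 FPKM), so a count of 0 is near the background. The shares beside the counts toward HuES53 are given above. The median difference of the members, 0.25, was 0.27 and 0.26 with pseudocounts of 0.1 and 0.5 FPKM, 0.15 with no filter, 0.31 with upper quartile, 0.22 with median of ratios and 0.49 with TPM scaling. It was 0.28 after removal of the GC and length trend, 0.26 by the longest transcript (an alternative chosen after seeing the data) and 0.23 without members that overlap another locus. Of the 27 members, 17 were higher in HuES53 in all 9 settings run for single genes. The pseudocounts and the choice of row for repeated symbols cannot change the sign of a member. That count therefore rests on the deposited values, the scalings and the trend removals. The share of all genes that kept their sign was not computed. The difference of SLC1A6 ran from 1.70 to 3.46. After removal of the GC and length trend SLC3A2 stood at 0.08, and its light chains ran from 0.19 (SLC7A6) to 0.58 (SLC7A5). By the longest transcript SLC3A2 stood at 0.24, and its light chains ran from -0.03 (SLC7A6) to 0.64 (SLC7A5), with SLC7A8 at 0.22. Values under 1 FPKM rest on few fragments, and no replicate error exists for any value.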

Other observations

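Partial copies of SLC7A5 had values of their own in the table. SLC7A5P1 stood at 1.70 FPKM in HuES53 and 0.962 FPKM in HuES64, and SLC7A5P2 at 2.07 and 0.831 FPKM. Fragments shared with SLC7A5 could be counted at either, and how the deposited values treat them is not given in the sources used here. SLC7A6 shares 1205 bases with SLC7A6OS, which stood at 12.3 FPKM in HuES53 and 13.1 FPKM in HuES64, and SLC7A10 shares 204 bases with LRP3, which stood at 11.8 and 14.1 FPKM. SLC3A1 shares 3218 bases with PREPL (11.1 and 8.53 FPKM), and the locus of SLC38A4 lies wholly within that of LOC100288798 (1.86 and 2.88 FPKM).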
